A study of Mus musculus with 12 samples.

Results

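The 10 genes described here encode enzymes that remove superoxide, peroxides and quinones, and the metal-binding metallothioneins: Gpx1, Gpx3, Gpx4, Sod1, Sod2, Sod3, Nqo1, Txnrd1, Mt1 and Mt2. They were taken as every probe set whose gene symbol in the platform's probe table is 1 of these names, and 22 of the 45101 probe sets on the array met that rule. No probe set named 1 of them together with another gene. All 10 genes had a probe set bright enough to be tested, and 21 of the 22 probe sets passed the filter on low signals.

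The study compared ways of amplifying nanogram amounts of total RNA, and every sample title carries the code pRS, which is not explained there. The data are 12 mouse expression arrays in 4 groups of 3, with no age, strain or sex given. Kidney RNA, bought from Ambion, was assayed at 10 ng. Universal mouse reference RNA, credited to Strategene and known as a pool of RNA from cultured lines, was assayed at 3 inputs of 0.3, 3 and 10 ng. The labels do not say whether the arrays of a group came from separate RNA or separate amplifications, so a p-value here covers the spread from array to array, which may be technical.

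Superoxide dismutases turn superoxide into hydrogen peroxide, in the cytosol (Sod1), the mitochondrial matrix (Sod2) and outside the cell (Sod3). Glutathione peroxidases then reduce peroxides at the expense of glutathione, and many of them, like the thioredoxin reductases, carry selenocysteine in the active site. The proximal tubule of the kidney is known as the main source of the glutathione peroxidase of blood plasma, Gpx3. Metallothioneins are small cysteine-rich proteins that bind zinc, copper and cadmium, and their genes are induced by metals through the transcription factor MTF1 and by glucocorticoids. Nqo1 and Txnrd1 are classical targets of NRF2, the regulator of the response to oxidants and electrophiles, which binds the antioxidant response element.

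Mt1 and Mt2, the 2 members that fell in kidney, lie next to each other on chromosome 8, with 0 annotated genes starting between them. The 250 bases before the start of each, in the RefSeq annotation of GRCm38.p6, are shown because both genes were called lower in kidney. Capitals mark matches to the core of the metal response element, TGCNCNC, searched on both strands. The Mt1 window is chr8:94178839-94179088 and the Mt2 window chr8:94172368-94172617, both on the plus strand.
Mt1: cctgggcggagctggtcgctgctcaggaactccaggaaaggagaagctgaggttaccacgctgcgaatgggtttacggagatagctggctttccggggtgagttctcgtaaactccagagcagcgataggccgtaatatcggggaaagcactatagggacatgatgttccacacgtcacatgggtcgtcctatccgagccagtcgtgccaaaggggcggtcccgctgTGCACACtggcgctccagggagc
Mt2: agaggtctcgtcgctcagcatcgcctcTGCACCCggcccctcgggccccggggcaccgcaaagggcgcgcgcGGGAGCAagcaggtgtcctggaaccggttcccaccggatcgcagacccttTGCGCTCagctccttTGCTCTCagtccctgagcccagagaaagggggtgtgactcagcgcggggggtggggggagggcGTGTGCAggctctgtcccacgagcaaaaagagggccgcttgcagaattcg
The Mt2 window held 5 matches, which began 223, 178, 128, 113 and 50 bases before the start and did not overlap each other. The Mt1 window held 1, at 23 bases before the start. Bases past the annotated start were not searched, so these counts do not compare the whole promoters of the 2 genes. Of 32851 such windows in the genome, 44.4% held at least 1 match and 0.344% held at least 5. A match is a run of letters and was not tested as a binding site. The core of the antioxidant response element, TGACNNNGC, occurred once in the Sod1 window, once in the Mt2 window, in 1 of 3 windows of Txnrd1 and in none of those of Nqo1, Gpx1, Gpx3, Gpx4, Sod2 and Mt1, against 10.2% of all windows. In the Mt2 window it was not marked. Sites more than 250 bases before a start would not have been found. RefSeq windows were found for 9 of the 10 genes, all but Sod3.

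Signals are the deposited linear intensities, whose trimmed mean averaged 500 over the arrays. Median signals of single arrays ran between 56.6 and 59.6 in kidney, and between 47.5 and 53.2, 70.1 and 78.3, and 67.9 and 71.2 in reference RNA at 0.3, 3 and 10 ng. Background is the level of 33.65 set by control probe sets for bacterial RNA. The kidney label held up against its markers: 6 of 6 tubule genes lay above background on every kidney array, with a summed signal of 33372 to 34275, and 0 of 6 did so in reference RNA at 10 ng, where the sum was 116 to 146. Markers of dividing cells were opposite, at 562 to 768 in kidney and 15336 to 15710 in reference RNA at 10 ng (5 of 6 genes measured). Red cell markers summed to 10436 to 11099 in kidney and 964 to 1065 in reference RNA at 10 ng (6 of 8 measured, with Hba-a1 and Epb42 below background on every kidney array). Macrophage markers summed to 9777 to 12070 and 3551 to 3818 (6 of 6 measured). C1qa and C1qc lay below background on every reference array at 10 ng. Hepatocyte markers summed to 18817 to 19080 and 112 to 136 (6 of 6 measured, with Fgb below background on every kidney array). These sums measure marker RNA and do not by themselves show that a cell type is present. What part any of these cell types has in the results below was not tested. In RNA of a whole organ and of a pool, fewer cells of a type and less RNA per cell cannot be told apart.

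Kidney against reference RNA at equal input asked how the defence genes of a tissue differ from those of a pool of cell lines. Of the 10 genes, Gpx1, Gpx3, Sod2 and Sod3 rose in kidney and Mt1 and Mt2 fell, while Gpx4, Sod1, Nqo1 and Txnrd1 did not pass the test (limma, Benjamini-Hochberg adjusted p under 0.05 over 27022 probe sets). That is 6 of 10 genes called, against a background of 62.7% of the 12820 tested genes. By direction it is 4 higher against 27.1% of all genes, and 2 lower against 35.6%. The median log2 fold change was 0.41 over the 10 genes and -0.19 over all tested genes. The number called is close to that over the whole array. Of their 21 tested probe sets, 9 were called higher and 3 lower, against 22.9% and 37.2% of all tested probe sets (60.1% either way). Several of those called higher measure the same gene, Sod2 or Sod3, so they do not count as separate genes. The 2 secreted enzymes, Gpx3 and Sod3, had the largest fold changes of the 10.

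**Figure D1:**
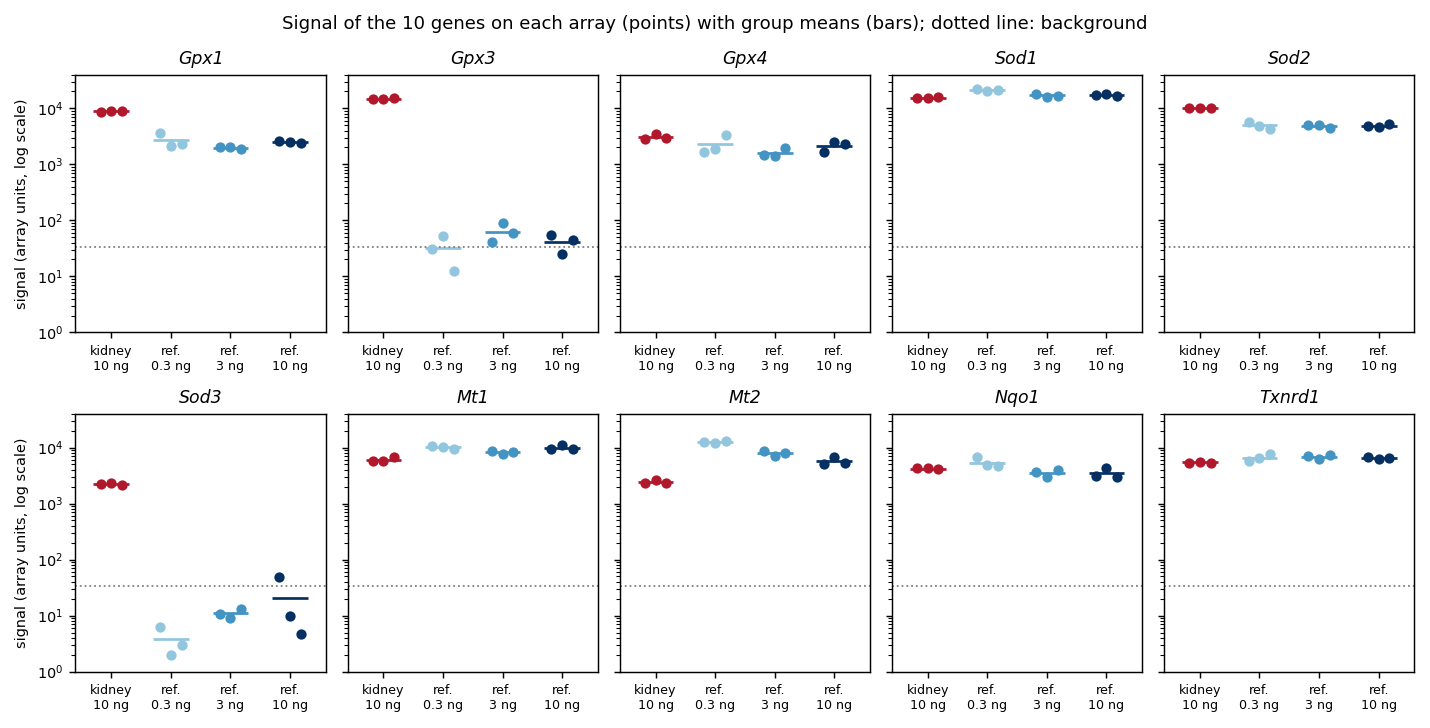
Signal of each of the 10 genes on every array, on a log axis in array units, for kidney RNA at 10 ng (red) and reference RNA at 0.3, 3 and 10 ng (blue shades). Points are arrays, bars are means of 3 arrays, and the dotted line is background (33.65). Gpx3 and Sod3 lie near or below background in reference RNA and at means of 14738 and 2266 in kidney, while Sod1, Nqo1 and Txnrd1 are bright in all 4 groups.

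Gpx3, the secreted glutathione peroxidase of plasma, had signals of 14392, 14734 and 15090 on the kidney arrays. In reference RNA at 10 ng it had 53.8, 24.6 and 44.9. The groups were far apart, and 1 of the 3 reference arrays was below background. The kidney mean of 14738 ± 349 stood against 41.1 ± 15.0 for the pool (SD, n = 3), 359-fold higher in kidney, with a log2 fold change of 8.42 ± 0.28 (SE; limma adjusted p = 1.57e-05) on the scale of log2(signal + 3.9). Flooring signals at background gave 8.28. Reference RNA at 0.3 and 3 ng gave 31.7 ± 19.6 and 62.8 ± 24.7 (SD, n = 3), so that all 9 reference arrays lay below 90 and the 3 inputs overlapped.

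Sod3, the extracellular superoxide dismutase that binds heparan sulphate, is the other secreted enzyme. It measured 2273, 2359 and 2167 on the kidney arrays and 48.2, 9.7 and 4.7 on those of reference RNA at 10 ng. Only 1 of the 9 reference arrays, replicate 1 at 10 ng, lay above background. On the log2 scale kidney was higher by 6.96 ± 0.66 (SE; limma adjusted p = 0.000423), or 5.76 with signals under background raised to it. Without the reference array above background it was 7.71, and leaving out each array in turn gave 6.41 to 7.71, called each time. At 0.3 and 3 ng every reference array lay below background, and the kidney signal was at least 67.3-fold higher than that level at each. The second Sod3 probe set, 1417634_at, was dimmer, at 394 ± 45.3 in kidney and 22.2 ± 12.9 in reference RNA at 10 ng (SD, n = 3), at least 11.7-fold higher (limma adjusted p = 0.000652).

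Gpx1, the glutathione peroxidase of the cytosol and mitochondria, measured 8626, 8989 and 9103 in kidney and 2562, 2533 and 2372 in reference RNA at 10 ng. Every kidney array was above every reference array. Its mean was 3.58-fold higher in kidney, with a log2 fold change of 1.84 ± 0.11 (SE; limma adjusted p = 9.86e-05).

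Sod2, the manganese enzyme of the mitochondrial matrix, was covered by 4 probe sets, and all 4 were called higher in kidney. The brightest, 1454976_at, measured 9928, 10186 and 10187 in kidney and 4873, 4585 and 5221 in reference RNA at 10 ng. Its log2 fold change was 1.05 ± 0.12 (SE; limma adjusted p = 0.000828), a 2.06-fold difference. The other probe sets of Sod2 gave larger values, 1.76 ± 0.12, 1.73 ± 0.14 and 1.52 ± 0.22 (SE), so that the direction was shared and the size was not.

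**Figure D2:**
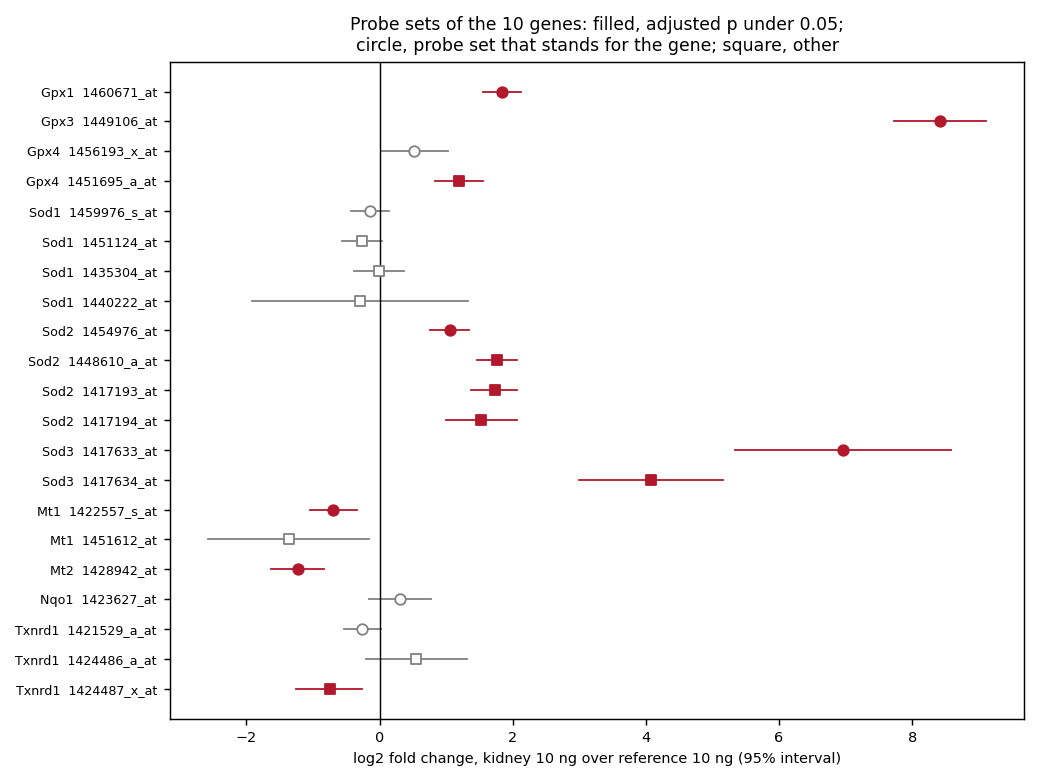
Log2 fold change of kidney over reference RNA at 10 ng for the 21 tested probe sets of the 10 genes, with 95% intervals from the limma fit. Filled points passed the test, circles are the probe sets that stand for a gene, and squares are the others. The 4 probe sets of Sod2 lie on 1 side of 0 and the 3 of Txnrd1 on both.

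Gpx4, which reduces lipid hydroperoxides in membranes and restrains ferroptosis, gave different answers on its 2 probe sets. The brighter, 1456193_x_at, whose suffix marks probes that may cross-hybridise, measured 2787, 3429 and 2954 in kidney and 1647, 2513 and 2321 in reference RNA at 10 ng. The groups did not overlap, but the log2 fold change of 0.52 ± 0.20 (SE) missed the threshold (limma adjusted p = 0.0706). The call was made with each array centred on its median (0.76, adjusted p = 0.0232). The dimmer, 1451695_a_at, measured 703, 893 and 823 in kidney and 375, 353 and 323 in reference RNA, and was called, with a log2 fold change of 1.19 ± 0.15 (SE; limma adjusted p = 0.00114).

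Sod1, the copper-zinc enzyme of the cytosol, was bright everywhere. Its brightest probe set, 1459976_s_at, measured 15044, 15550 and 15596 in kidney and 17089, 17933 and 16251 in reference RNA at 10 ng. The log2 fold change was -0.15 ± 0.12 (SE), with a 95% interval of -0.43 to 0.14 (limma adjusted p = 0.3), and it was 0.10 with arrays centred on their medians and 0.17 with quantile normalization, so no direction is given. A second bright probe set, 1451124_at, gave -0.26 ± 0.13 (adjusted p = 0.115). The other 3 probe sets of Sod1 were dim, with means from 17.5 to 286 in reference RNA at 10 ng. None of its 4 tested probe sets was called at 10 ng. Against reference RNA at 3 ng the dim 1440222_at was called lower (-1.48, limma adjusted p = 0.0334), and at 0.3 ng it was not (0.97, 0.192).

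Nqo1, the quinone reductase, measured 4288, 4280 and 4067 in kidney and 3052, 4392 and 2952 in reference RNA at 10 ng. Replicate 2 of the reference RNA lay above all 3 kidney arrays, and the groups overlapped. Kidney minus reference RNA came to a log2 fold change of 0.30 ± 0.19 (SE), with a 95% interval of -0.16 to 0.77 (limma adjusted p = 0.208). Without that array it was 0.49 and passed the test (limma adjusted p = 0.0249), so 1 library decides the call. Txnrd1, the cytosolic thioredoxin reductase, measured 5390, 5559 and 5356 in kidney and 6727, 6303 and 6435 in reference RNA. The groups did not overlap. That was so for 9 of the 10 genes, all but Nqo1, with 5 higher and 4 lower in kidney, against 73.2% of all genes (31.7% higher, 41.5% lower). Overlap was read on the deposited signals alone. Sod1, counted there as lower, had a log2 fold change of 0.10 with centring and 0.17 with quantile normalization. For Txnrd1 the log2 fold change was -0.26 ± 0.11 (SE), with a 95% interval of -0.53 to 0.02. It missed the threshold (limma adjusted p = 0.0968). Centring took it to -0.01 (limma adjusted p = 0.947) and quantile normalization to -0.32 (0.0515), so its size depended on the scaling.

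Mt1 and Mt2, the metallothioneins found in most tissues, were both lower in kidney. Mt1 measured 5810, 5755 and 6801 in kidney and 9378, 11045 and 9346 in reference RNA at 10 ng, with no overlap. Its log2 fold change was -0.70 ± 0.14 (SE; limma adjusted p = 0.008), and with arrays centred on their medians it was -0.45 and no longer passed (adjusted p = 0.0576). Mt2 measured 2334, 2652 and 2291 in kidney and 5147, 6756 and 5256 in reference RNA. Its log2 fold change was -1.23 ± 0.16 (SE; limma adjusted p = 0.00144), and it stayed below 0 and past the threshold in every alternative run, with values from -1.32 to -0.98. The second Mt1 probe set, 1451612_at, was near background in kidney (38.8, 72.5 and 15.6) and measured 106, 97.0 and 94.0 in reference RNA, a log2 fold change of -1.36 ± 0.49 (SE) that missed the threshold (limma adjusted p = 0.0536). The main Mt1 probe set carries the suffix that marks probes shared between transcripts of more than 1 gene, so part of its signal may come from a relative.

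Against reference RNA at lower inputs, where tissue and input change together, the same kidney arrays were used again. At 3 ng, 5 of the 10 genes were called higher and 2 lower, against 57.8% of all genes called (26.4% higher, 31.4% lower). Gpx1, Gpx3, Sod2, Sod3 and Gpx4 were higher, and Mt1 and Mt2 lower. At 0.3 ng, 4 were called higher and 2 lower, against 37.6% of all genes (20.9% higher, 16.7% lower). The genes called were those called at 10 ng.

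The log2 fold change of Gpx1 was 1.76, 2.16 and 1.84 for kidney against reference RNA at 0.3, 3 and 10 ng. For the brightest probe set of Sod2 the values were 1.03, 1.06 and 1.05, while 1448610_a_at gave 2.08, 1.90 and 1.76, 1417193_at gave 1.98, 1.78 and 1.73, and 1417194_at gave 2.06 (not called, limma adjusted p = 0.0663), 1.62 and 1.52. For Mt2 they were -2.38, -1.70 and -1.23. The fitted values of Mt2 and of the 3 dimmer Sod2 probe sets were larger at each lower input, those of the brightest Sod2 probe set were close to each other, and the differences between these values were not tested. The brighter Gpx4 probe set had 0.48 (limma adjusted p = 0.312), 0.92 (0.00935) and 0.52 (0.0706), and so was called at 3 ng alone. The dimmer one, 1451695_a_at, was called higher at all 3 inputs, with 1.20 (limma adjusted p = 0.0359), 1.23 (0.00602) and 1.19 (0.00114).

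The dim second probe set of Mt1, 1451612_at, was called lower against both lower inputs. Its log2 fold change was -1.59 (limma adjusted p = 0.0354) at 3 ng and -2.17 (0.0292) at 0.3 ng. With signals under background raised to it, these were -1.28 and -1.86. The call for the main Mt1 probe set was weak there. At 3 ng its log2 fold change was -0.43 (limma adjusted p = 0.0464), and without any 1 of the 6 arrays the adjusted p lay between 0.0565 and 0.133. Centring arrays on their medians left -0.08 (adjusted p = 0.713), and the call was also lost with no filter (0.14) and with all arrays in 1 fit (0.0507). At 0.3 ng it was -0.74 (limma adjusted p = 0.0426), and the call was lost without kidney replicate 1, 2 or 3 (adjusted p = 0.154, 0.157 and 0.106) or reference replicate 1 or 2 (0.0512 and 0.0624). The call for Sod2 at 0.3 ng (limma adjusted p = 0.016) was lost without kidney replicate 1, 2 or 3 (0.0695, 0.0738 and 0.0728) while its log2 fold change stayed between 0.95 and 1.13. Without kidney replicate 1, 2 or 3, the number of all probe sets called against 0.3 ng was 5516, 5549 and 5529, in place of 9414.

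Reference RNA at lower against higher input asked whether a gene's signal depends on how much RNA was amplified. None of the 10 genes was called between 3 and 10 ng, where limma called 0% of genes: 0 of 27022 probe sets passed, with 2736 at an unadjusted p under 0.05, and 5 were called with all 12 arrays in 1 fit. None was called between 0.3 and 10 ng, where limma called 0.554% of genes (0.0078% higher, 0.546% lower). Values nevertheless differed between the genes. Arrays at 0.3 ng were the least reproducible, with correlations of log2 signals between replicates of 0.827 to 0.863, against 0.963 to 0.965 at 10 ng. The median SD per probe set was 0.687 at 0.3 ng and 0.242 at 10 ng on the log2 scale. The fit takes the same spread for both groups, which these values do not meet.

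Among the 8 genes above background in reference RNA, Mt2 had the largest fitted difference between 0.3 and 10 ng. It measured 12602, 11958 and 13322 at 0.3 ng, 8559, 7149 and 7997 at 3 ng, and 5147, 6756 and 5256 at 10 ng. The 3 inputs did not overlap, and the signal was higher at each lower input, with means of 12628, 7902 and 5719. The arrays at 0.3 ng all lay above those at 10 ng in 7.46% of all genes. The log2 fold change of 0.3 over 10 ng was 1.15 ± 0.23 (SE), with a 95% interval of 0.58 to 1.72 and a limma adjusted p of 0.109. It passed with all 12 arrays in 1 fit (adjusted p = 0.0073) and with signals floored at background (0.0378), and over all alternatives the adjusted p lay between 0.0073 and 0.413.

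Mt1, its neighbour, measured 10777, 10268 and 9549 at 0.3 ng, 8683, 7732 and 8254 at 3 ng, and 9378, 11045 and 9346 at 10 ng. Arrays at 0.3 and 10 ng overlapped, and those at 3 ng were lower than both. The log2 fold change of 0.3 over 10 ng was 0.04 ± 0.22 (SE; limma adjusted p = 0.945). The log2 difference of Mt2 minus Mt1 within an array does not depend on the scaling of that array. It averaged 0.31 ± 0.15 at 0.3 ng, -0.06 ± 0.05 at 3 ng and -0.80 ± 0.08 at 10 ng (SD, n = 3 each). In kidney RNA at 10 ng it was -1.33 ± 0.23. This pair was chosen after the values were seen, so the difference is given with no test. The dim second probe set of Mt1 had 127, 201 and 214 at 0.3 ng and 106, 97.0 and 94.0 at 10 ng, all higher at 0.3 ng, unlike the brighter one, but not called (log2 fold change 0.81 ± 0.28 SE; limma adjusted p = 0.262).

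**Figure D3:**
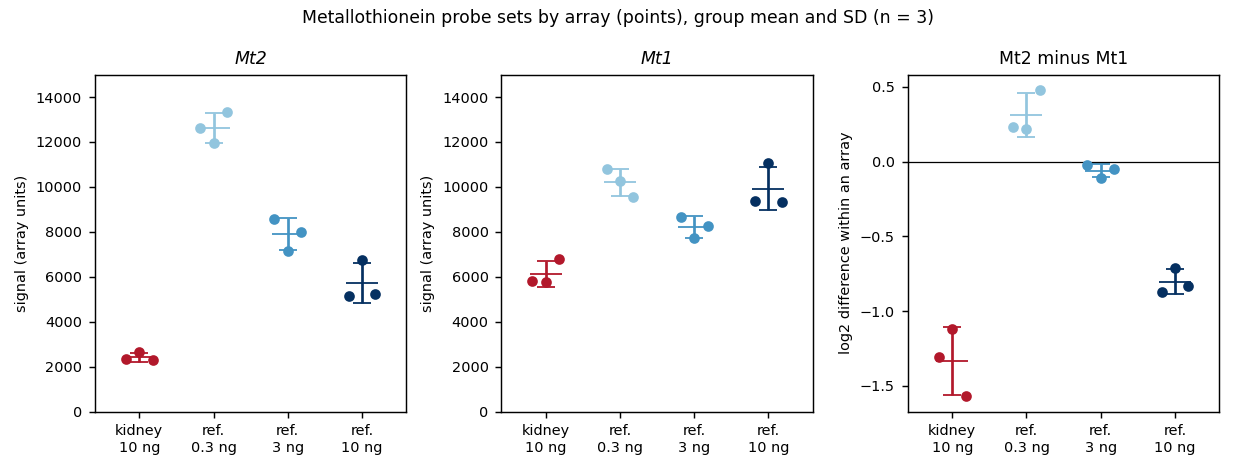
Signals of Mt2 and Mt1 in array units from 0, and their log2 difference within each array, for kidney RNA at 10 ng and reference RNA at 0.3, 3 and 10 ng. Points are arrays, and horizontal marks with whiskers are means and SD of 3 arrays. Mt2 is highest at 0.3 ng (11958 to 13322) and lowest in kidney, while Mt1 at 0.3 and 10 ng overlaps.

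Nqo1 measured 6713, 4898 and 4609 at 0.3 ng, all above the 3052, 4392 and 2952 measured at 10 ng. Its log2 fold change was 0.65 ± 0.29 (SE), with a 95% interval of -0.07 to 1.36 (limma adjusted p = 0.362). Sod1 measured 21961, 20264 and 20964 at 0.3 ng, above every array at 10 ng, with a log2 fold change of 0.30 ± 0.21 (SE; adjusted p = 0.535) that was -0.04 with quantile normalization. With Mt2, that makes 3 of the 10 genes in which all arrays at 0.3 ng lay above those at 10 ng, and none had them all below. Over all genes 25.2% had no overlap (7.46% above, 17.8% below). Between 3 and 10 ng it was 1 gene, Mt2, above (6.59% of all genes) and 2, Gpx1 and Mt1, below (11% of all genes), with 17.6% in either direction.

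The brightest probe set of Sod2 had means of 4955, 4857 and 4893 at 0.3, 3 and 10 ng and a 95% interval of -0.55 to 0.57 for the log2 fold change of 0.3 over 10 ng. On 2 of its dimmer probe sets, 1448610_a_at and 1417193_at, every array at 0.3 ng lay below those at 10 ng, with log2 fold changes of -0.32 and -0.26 that were not called (limma adjusted p = 0.523 and 0.615). The main probe set of Txnrd1 had means of 6616, 6851 and 6488, with an interval of -0.56 to 0.59. Its 2 dim probe sets did not keep to this. Probe set 1424486_a_at measured 122, 499 and 1346 at 0.3 ng, 154, 236 and 429 at 3 ng, and 100.7, 183 and 86.7 at 10 ng, so that single arrays of 1 input differed by more than the inputs did (log2 fold change of 0.3 over 10 ng 1.87 ± 0.88 SE; limma adjusted p = 0.385). Probe set 1424487_x_at measured 144, 412 and 775 at 0.3 ng and 136, 161 and 102 at 10 ng. The order of the 3 arrays at 0.3 ng was the same on both. In kidney against reference RNA at 10 ng, 1424487_x_at was called lower (-0.75 ± 0.20 SE; adjusted p = 0.0206) and 1424486_a_at was not (0.55 ± 0.31; 0.165). Against 3 and 0.3 ng, 1424487_x_at was again called lower, with -1.41 (limma adjusted p = 0.0125) and -2.19 (0.0406). Probe set 1424486_a_at was not called at either.

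Gpx1 had means of 2698, 1994 and 2489 at 0.3, 3 and 10 ng, with 1 array at 0.3 ng, replicate 1, at 3640 and the other two at 2152 and 2304. Gpx4 had means of 2295, 1622 and 2160, with replicate 3 at 0.3 ng at 3352. Neither gene's inputs had an order beyond the spread between 0.3 and 10 ng. Gpx3 and Sod3 were too close to background in reference RNA for an effect of input to be read.

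The genes that work with these enzymes were read from lists, in kidney against reference RNA at 10 ng. Glutathione synthesis and recycling had 11 genes higher and 3 lower of 15 tested, with a median log2 fold change of 1.96. Over all tested genes 27.1% were called higher and 35.6% lower, 62.7% in all. Slc3a1, a subunit of the renal transporter of cystine and dibasic amino acids, had a mean signal of 4979 ± 292 in kidney, against 89.8 ± 26.2 (log2 fold change 5.77). Oplah, which reopens oxoproline, was at least 19.4-fold higher, and Dpep1, a dipeptidase of the brush border, measured 3661 ± 114 and 395 ± 61.5 (3.21; SD, n = 3 throughout). The enzymes that make glutathione also rose, though they are named here with their values already known: Gclc (2.69), Gclm (1.86) and Gss (2.88). Those that fell were Mgst2, a microsomal glutathione transferase, at 49.6 ± 14.7 and 1547 ± 73.9 (-4.89), Chac1, which breaks glutathione down, at 64.1 ± 21.3 and 457 ± 138 (-2.77), and Slc7a11, a subunit of the cystine/glutamate exchanger, at least 1.47-fold lower. Gsr, glutathione reductase, also named with its value known, had 0.26 and was not called (limma adjusted p = 0.0862).

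**Figure D4:**
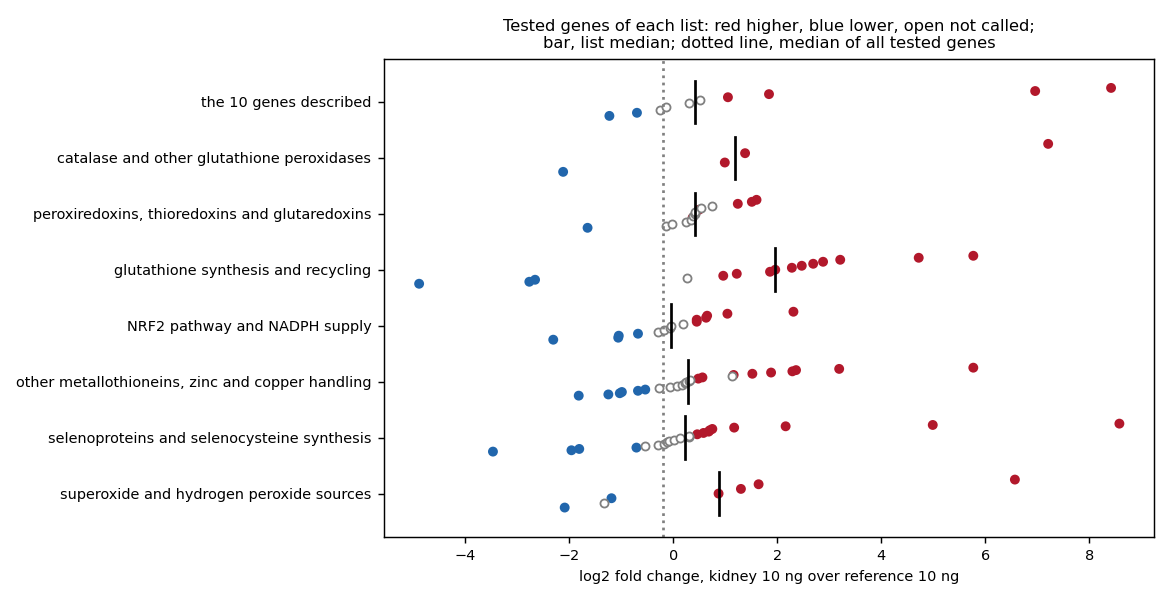
Log2 fold change of kidney over reference RNA at 10 ng for the tested genes of 8 lists. Red points were called higher, blue lower and open points not called, bars are list medians, and the dotted line is the median of all tested genes (-0.19). Glutathione genes have a median of 1.96, and genes of the NRF2 pathway lie on both sides of 0 with a median of -0.05.

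Of the other peroxidases and catalase, 3 were higher and 1 lower of 4 tested, against 27.1% and 35.6% of all genes. Gpx6, a glutathione peroxidase, had a mean of 1069 ± 92.5 in kidney, against 3.4 ± 1.4 (SD, n = 3), and was at least 31.8-fold higher. Catalase, Cat, which removes hydrogen peroxide in peroxisomes, measured 10767 ± 162 and 5559 ± 1399 (log2 fold change 0.99). Gpx7, of the endoplasmic reticulum, had 1.38, and Gpx8, a peroxidase of the same compartment, measured 1486 ± 95.6 and 6516 ± 968 (-2.12). Peroxiredoxins, thioredoxins and glutaredoxins counted 5 higher and 1 lower of 15, with a median of 0.41. That is 6 of 15 called, beside 62.7% of all genes. The largest rises were of Glrx5, a glutaredoxin of iron-sulphur cluster assembly (1.60), Txnrd2, the mitochondrial thioredoxin reductase (1.51), and Prdx3, the mitochondrial peroxiredoxin (1.24). Prdx4, the peroxiredoxin of the endoplasmic reticulum, fell by 1.65 on the log2 scale.

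The NRF2 pathway and the enzymes that supply NADPH counted 6 higher and 4 lower of 15, with a median log2 fold change of -0.05, beside -0.19 over all genes. Those 10 of 15 lie near the 62.7% called over all genes. Me1, malic enzyme, measured 2855 ± 67.5 in kidney and 572 ± 16.7 in reference RNA (2.31), Taldo1, transaldolase, had 1.04 and Hmox2, the constitutive haem oxygenase, 0.65. The small Maf gene Maff measured 114 ± 20.7 and 576 ± 26.5 (-2.31), Hmox1, the inducible haem oxygenase, 1005 ± 53.8 and 2104 ± 261 (-1.06), and Keap1, the inhibitor of NRF2, 399 ± 62.5 and 835 ± 181 (-1.05; SD, n = 3 throughout).

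Other metallothioneins and the genes that move zinc and copper counted 9 higher and 6 lower of 24, with a median log2 fold change of 0.27. The number called was again close to the background of 62.7%. The zinc exporter gene Slc30a2 was at least 22.7-fold higher in kidney. The importer genes Slc39a8, at 2834 ± 145 and 308 ± 30.1 (3.19), and Slc39a5 (2.36) were higher, and Slc39a6 (-1.82) and Slc39a10 (-1.03) lower. Mt3, the brain metallothionein, was also called lower, at a low signal of 28.4 ± 17.6 in kidney, against 66.6 ± 10.6 (SD, n = 3; -1.25, or -0.74 at the background level). Mtf1, the gene of the metal-sensing factor, likewise named with its value known, had 0.30 and was not called (limma adjusted p = 0.148).

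Selenoproteins and the genes that make or carry selenocysteine counted 9 higher and 4 lower of 22, with a median log2 fold change of 0.21, and 13 of 22 is near the same 62.7%. Lrp2, the megalin receptor that takes up selenoprotein P and is also in the tubule marker list, was at least 135-fold higher in kidney. Dio1, the selenoenzyme that activates thyroid hormone, was at least 15.0-fold higher, and Msrb1, a methionine sulphoxide reductase, measured 7178 ± 53.7 and 1601 ± 88.4 (2.16). Lrp8, the other receptor of selenoprotein P, measured 290 ± 10.1 and 3256 ± 11.7 (-3.47), Selenoh had -1.96 and Selenon, of the endoplasmic reticulum, -1.81. Sources of superoxide and hydrogen peroxide counted 4 higher and 2 lower of 7, against 27.1% and 35.6% of all genes. Nox4, the NADPH oxidase of the renal tubule, measured 5877 ± 77.0 in kidney and 59.1 ± 14.1 in reference RNA (6.57), Cyba, its partner subunit, 1463 ± 66.1 and 467 ± 41.8 (1.64), and Xdh, xanthine dehydrogenase, 884 ± 256 and 356 ± 95.1 (1.30). Of the phagocyte oxidase, whose membrane part also holds Cyba, the cytosolic subunits Ncf4 (-2.09) and Ncf1 (-1.19) were lower, and the catalytic subunit Cybb (0.87; limma adjusted p = 0.0169) was higher.

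None of the genes in these lists was called between reference RNA at 0.3 or 3 ng and 10 ng.

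The genes whose 4 group means were most like those of a member were found by the root mean square difference of centred log2 values over the 4 groups. For Gpx3 the nearest was Cyp4a14 (0.106), with means of 8952 in kidney and 23.6 in reference RNA at 10 ng. For Sod3 it was S100g (0.096), at 14077 and 98.0. For Gpx1 it was Mpc1 (0.02), at 2208 and 595. For Mt2 it was Padi3 (0.067), at 14.5 and 31.5, which lie under background, followed by Phykpl (0.089). Within 0.1 lay 0 genes for Gpx3, 1 for Sod3 and 2 for Mt2, between 18 and 348 for the others but Txnrd1, and 362 for Txnrd1, which is close to flat over the 4 groups.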

How the data were processed

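The authors deposited linear intensity values, 1 per probe set and array, for 12 arrays. The 2% trimmed mean of the values averaged 500 over these arrays, from which scaling to that level was inferred. Nothing on probe summarisation, background correction, software or amplification is given in the sources used here. Gene symbols came from the platform's probe table and were looked up by gene ID in the RefSeq table of GRCm38.p6 (34754 probe sets matched, 0 symbols changed). Among probe sets that name a single gene, the one brightest on average (mean log2, all arrays) stood for that gene.

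Log2 values were taken after adding 3.9, the 10th percentile of all values above 0. The 64 control probe sets were left out, and a probe set was tested where the highest of its 4 group means of log2 values lay above the 40th percentile (a signal of 65.4), which kept 27022. Some genes passed this filter only through the group in which they were then called higher. Gpx3, Sod3, Gpx6, Gpx7, Oplah, Slc30a2, Slc39a5, Lrp2 and Dio1 did so through kidney, and others, such as Slc7a11 and Mt3, through reference RNA. Background, 33.65, was read from the 27 Bacillus controls, at their 95th percentile. When a dimmer group was below that level throughout, its fold is an "at least" value computed from the level. The test was limma 3.58.1 (R 4.3.3; lmFit, then eBayes) on only the 6 arrays compared, two-sided, with Benjamini-Hochberg adjustment over all tested probe sets and a threshold of 0.05, and was tested on simulated data. The number of arrays limits the precision. Kidney comparisons share the kidney arrays, and those between inputs share the 10 ng arrays.

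The 10 genes, the lists, the tests and the alternatives were chosen with earlier results of these data known. Named genes are the 10 with all their probe sets, of each other list up to 3 called in each direction with the largest change, and by likeness the nearest genes over the 4 group means. Gclc, Gclm, Gss, Gsr, Mtf1 and Cybb are named outside this rule, after their values were seen. The alternatives were other pseudocounts (1 and 16), a floor at background, other filters, centring, quantile normalization, 1 fit of all arrays, a replicate block, another probe set for a gene and leaving out each array.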

Additional observations from a re-analysis of the deposited data

How the results depend on the processing

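The calls of Gpx1, Gpx3, Sod2, Sod3 and Mt2 in kidney against reference RNA at 10 ng kept their direction and passed the test under every alternative run. With arrays centred on their medians, the array-wide median moved to -0.09 in place of -0.34 on the log2 scale, and the calls were 7540 higher and 7805 lower in place of 6201 and 10045. Against 3 ng, centring gave 7550 higher and 6546 lower, in place of 5886 and 9422. Of 151 alternative values for the 10 genes in each comparison, 146, 137 and 136 kept direction and side of the threshold for kidney against 10, 3 and 0.3 ng, and 140 and 137 for reference RNA at 3 and 0.3 ng against 10 ng. Values of the other sign were uncalled but not all small. Sod3 between 3 and 10 ng was -0.30 in the main fit and reached 0.46 without 1 array. For Sod1 in kidney they were 0.10 (centring) and 0.17 (quantile normalization) against 10 ng, 0.21 and 0.16 against 3 ng, and 0.20 (quantile) against 0.3 ng. For Txnrd1 in kidney against 3 ng centring gave 0.01. Between 3 and 10 ng, quantile normalization gave 0.00 for Sod1, and centring -0.05 for Nqo1 and -0.02 for Txnrd1. Leaving out 1 array there gave ranges of -0.07 to 0.03 for Sod1, -0.06 to 0.06 for Sod2, -0.84 to 0.46 for Sod3 and -0.05 to 0.23 for Nqo1. Between 0.3 and 10 ng, quantile normalization gave -0.04 for Sod1, -0.08 for Sod2, -0.17 for Mt1 and -0.12 for Txnrd1. Leaving out 1 array gave -0.16 to 0.22 for Gpx1, -0.85 to 0.02 for Gpx3, -0.27 to 0.24 for Gpx4, -0.08 to 0.10 for Sod2 and -0.11 to 0.12 for Txnrd1. The cause of these changes was not tested.

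Without 1 array, 13980 to 14769 probe sets and 6 to 7 of the 10 genes were called in kidney against 10 ng, 13036 to 13657 and 6 to 6 against 3 ng, and 5516 to 10245 and 4 to 6 against 0.3 ng. Between 3 and 10 ng, 1 probe set was called with centring and 5 with all arrays in 1 fit. Between 0.3 and 10 ng the 215 calls became 561 with a floor at background, 76 with no filter, 127 with low signals judged by the overall mean, 79 with centring, 72 with quantile normalization, 1571 with all arrays in 1 fit and 0 to 595 without 1 array: 0 without any array at 10 ng, and 595 and 569 without replicate 1 or 3 at 0.3 ng. Among the 10 genes, 1, Mt2, was called with the floor and with all arrays in 1 fit. Same-numbered arrays of different groups did not deviate together (correlations of -0.063 to 0.016 over 18 pairs) and share only a number. With the replicate block, 14650 probe sets were called in kidney against 10 ng, 13547 against 3 ng, 6660 against 0.3 ng and 0 between 0.3 and 10 ng; the block ended the calls of Mt1 against 3 ng (adjusted p = 0.111) and 0.3 ng (0.146) and of Sod2 against 0.3 ng (0.0763), in a fit with fewer residual degrees of freedom.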
